A study of Nicotiana tabacum with 9 samples.

Results

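Cytochrome P450 genes were followed across young leaves of 3 tobacco (Nicotiana tabacum) genotypes, NC82, M21 and G27, with 3 RNA-seq libraries each. Members were the genes whose deposited description holds the words cytochrome P450 and whose value reached 1 in at least 3 of the 9 libraries. The words matched 688 of 69500 genes, and 194 of these passed the value rule. Of the 194, 188 are described as P450 enzymes, and 6 are NADPH-cytochrome P450 reductases, which carry the words in their name but are partner proteins. The 188 enzymes are described below, and the 6 reductases stand apart beside them. The study concerns NtAN3 and leaf size; AN3 is known from Arabidopsis as a transcriptional co-activator of leaf growth. NC82, a flue-cured cultivar, is used as the reference. All plants were at the squaring period (flower bud formation), and the labels give no treatment. The labels name M21 and G27 only as genotypes, with no statement of the allele, transgene, promoter or number of clones behind them, or of whether replicates were separate plants.

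Cytochrome P450 enzymes are heme proteins that use molecular oxygen and electrons from NADPH to oxidize small molecules. In plants most of them sit in the endoplasmic reticulum and draw their electrons from NADPH-cytochrome P450 reductase, at times with help from cytochrome b5. They act in the synthesis of phenylpropanoids, terpenoids, sterols, cutin and alkaloids, in the making and breakdown of gibberellins, brassinosteroids, abscisic acid and jasmonate, and in detoxification. In tobacco leaves a P450 turns nicotine into nornicotine, and another acts in the synthesis of capsidiol, a sesquiterpene made in defence. The descriptions give protein signatures only, such as E-class group I, so which of these reactions a given gene serves cannot be read from them, and genes are named by identifier.

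Most listed P450 genes were low or silent in these leaves. Of 681 listed enzymes, 190 were at 0 in all 9 libraries, 303 were above 0 somewhere but under the value rule, and 188 (27.6%) passed it, against 47.8% of all genes. Means over the 9 libraries ran from 0.721 to 227.8 among those that passed, with a median of 3.53 normalized expression units, against 5.77 for all tested genes. The unit is the authors' depth-scaled value, whose name the header does not give, so any order of levels between genes assumes that values were divided by transcript length. Among those that passed, Nitab4.5_0003460g0020, Nitab4.5_0005340g0050 and Nitab4.5_0003045g0040 had the means nearest above 1, at 1.01, 1.04 and 1.06 over the 9 libraries. The rule is not set on the mean, and 12 that passed had means under 1. Among those that did not pass, Nitab4.5_0006267g0020, Nitab4.5_0003235g0010 and Nitab4.5_0001875g0130 had the means nearest to 1, at 0.926, 0.846 and 0.814. Of the 188, 140 stood at 1 or more in all 9 libraries. In 4 genes, chosen after their values were seen, a value of 1 was reached in a single genotype, which was M21 for Nitab4.5_0001119g0110, Nitab4.5_0000156g0040 and Nitab4.5_0006052g0010 and NC82 for Nitab4.5_0002725g0010. Such genes passed through the group in which they were high, and they remain in the counts of calls below. Other members also met the rule with help from the group in which they were high, and how many did so was not counted. Nitab4.5_0000156g0040 and Nitab4.5_0006052g0010 are among those that rose in M21 against NC82, and the first is also among those that rose in G27. Nitab4.5_0002725g0010 is among the falls of both lines, and Nitab4.5_0001119g0110 is among those higher in M21 than in G27.

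The summed level of the 188 enzymes was highest in M21. It stood at 1532.8, 1658.2 and 1666.2 in the NC82 libraries, at 1796.8, 1742.4 and 1783.7 in M21 and at 1509, 1556.9 and 1444.9 in G27. The M21 range lay above both others, while the NC82 and G27 ranges overlapped. These sums made up 0.186% to 0.228% of a library. The number of listed P450 genes at 1 or more was 164, 170 and 173 in NC82, 181, 179 and 182 in M21, and 172, 171 and 171 in G27. In bulk leaf tissue, fewer cells of a type and less RNA per cell cannot be told apart.

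Relative depths, estimated from the steps of low values with NC82 replicate 1 set at 1, were 0.942 to 1.2 for NC82, 0.799 to 0.898 for M21 and 0.852 to 0.994 for G27. Absolute depth is unknown. On the third principal component (11.6% of the variance), 3 libraries stood apart: NC82 replicate 1 scored 22.9, G27 replicate 1 scored 21.2 and M21 replicate 3 scored 16, against -18.9 to -2.06 for the other 6. The leaf identity was plain, with summed levels of 40480.8 to 46653.6 for genes described as small subunits of RuBisCO and 31104.3 to 38951.7 for chlorophyll a/b binding proteins, while genotypes overlapped in the second and G27 lay above NC82 in the first. Genes with a photosystem description summed to 57656.4 to 62580.7 in M21, above the 55918.2 to 56372.1 of NC82, and to 54902.8 to 57451.6 in G27. Genes whose descriptions carry pollen or seed protein names, 165 and 251 of them, summed to 1643.1 to 1942.8 and 5184.3 to 5493.9, with overlapping genotypes. Of these, 61 and 98 were at 0 in every library.

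**Figure D1:**
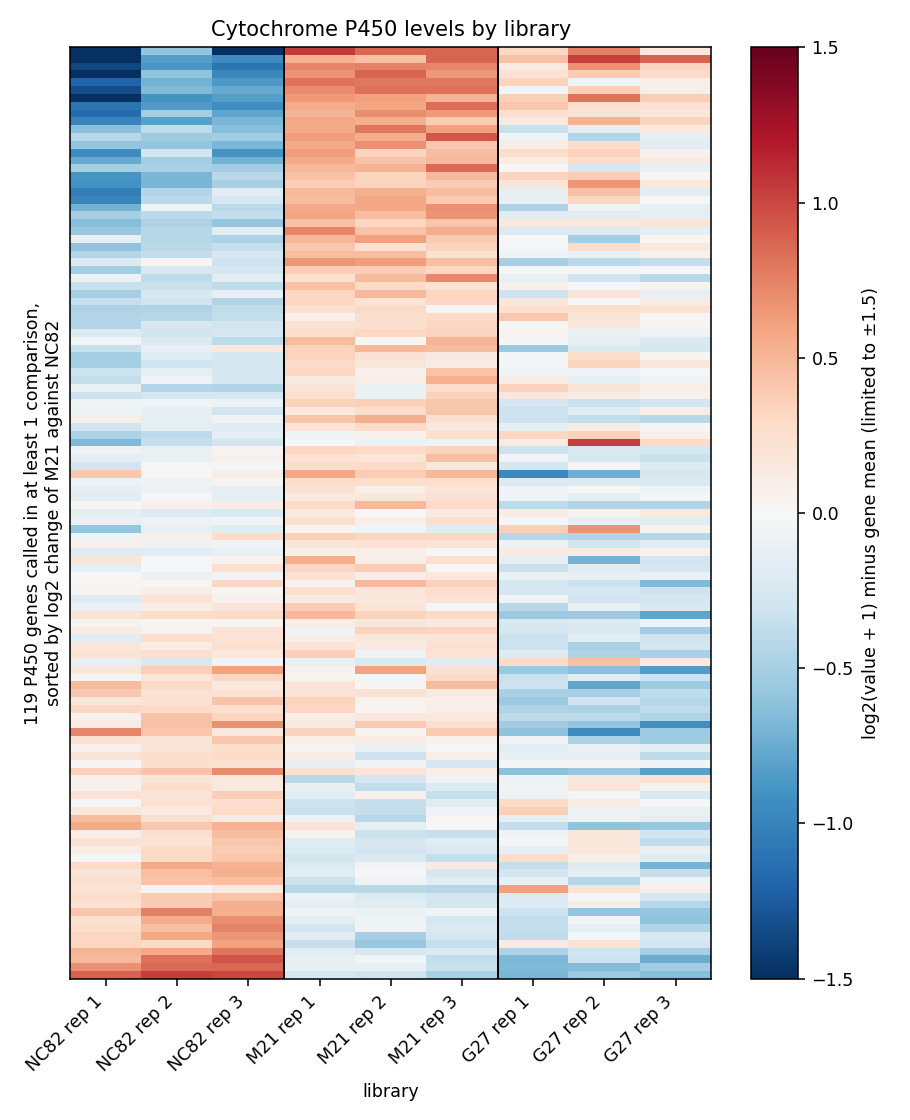
Levels of the 119 P450 genes called in at least 1 comparison, as log2(value + 1) minus the gene's mean over the 9 libraries (colour, limited to ±1.5); columns are libraries and rows are genes sorted by their log2 change in M21 against NC82. Rows at the top are low in NC82 and lowest in NC82 replicate 1, and rows at the bottom are high in NC82.

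M21 was compared with NC82 to ask how P450 genes differ in this line. More of them rose than fell: 60 of 188 rose (31.9%) and 27 fell (14.4%). Among all 33188 tested genes 13.0% rose and 11.3% fell. Calls rest on limma fitted to log2(value + 1) of every tested gene, at a Benjamini-Hochberg adjusted p under 0.05, and changes below are on that log2 scale, which understates those of low genes. The median log2 change was 0.131 over the 188 enzymes and 0.035 over all tested genes. Changes of at least 1 in size were called for 20 enzymes that rose and 1 that fell, 11.2% of the enzymes, where 2.77% of all genes passed that mark. The groups did not overlap for 72 enzymes that were higher and 40 that were lower, 59.6% in all, against 22.4%, 18.0% and 40.3% of all genes.

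The 6 largest rises were all in E-class group I, the signature carried by most plant P450 enzymes of the endoplasmic reticulum. Nitab4.5_0020114g0010 stood at 1.1, 3.97 and 1.52 in NC82, at 14.6, 12.7 and 12.8 in M21, and at 8.31, 11.7 and 7.39 in G27. Its M21 libraries lay above all others, and it rose by 2.27 (SE 0.27) in M21, with a limma adjusted p of 0.00015. Nitab4.5_0007406g0020 stood at 0.63, 3.97 and 3.59 in NC82, at 11.7, 11.1 and 15.2 in M21, and at 11.01, 17.1 and 15.3 in G27. M21 and G27 overlapped here, and NC82 replicate 1 was far under the other NC82 libraries. The rise in M21 was 2.02 (SE 0.35, limma adjusted p = 0.0017).

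Other large rises were tighter within M21. Nitab4.5_0013195g0010 went from 4.19, 6.3 and 5.28 in NC82 to 21.2, 21.4 and 21.2 in M21, a rise of 1.85 (SE 0.14, limma adjusted p = 1e-05). Nitab4.5_0006692g0010 went from 2.8, 4.34 and 3.83 to 14.4, 14.1 and 14.2, a rise of 1.72 (SE 0.13, limma adjusted p = 8.4e-06). In both genes the spread among the M21 libraries was smaller than among the NC82 libraries, and no M21 library came near the NC82 range. Nitab4.5_0007566g0010 rose from 5.44 ± 1.92 to 20.1 ± 1.8 (SD, n = 3), and Nitab4.5_0001857g0030 from 2.58 ± 0.83 to 10.4 ± 0.507. In all 6 of these genes NC82 replicate 1 was the lowest NC82 library. Over the 60 enzymes that rose, it was the lowest of its group in 42 (70%), against 46.2% of all genes that rose, and over the 27 that fell in 20 (74.1%), against 51.8%. Without NC82 replicate 1, 50 enzymes rose and 24 fell, and 39.4% were called, against 22.8% of all genes. With all libraries these shares were 46.3% and 24.3%. The part of NC82 replicate 1 in the counts was not tested further.

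**Figure D2:**
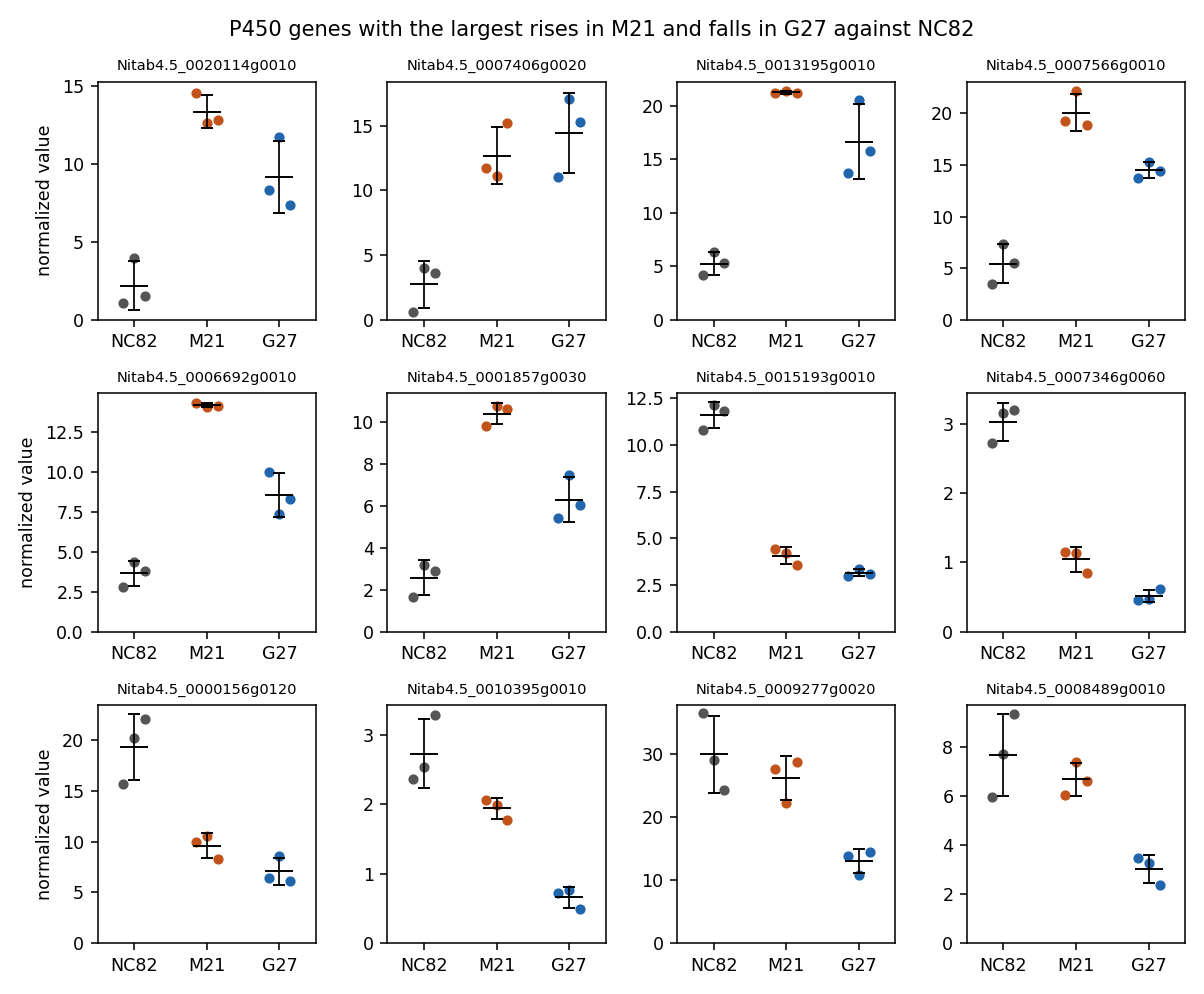
Normalized values of 12 P450 genes in every library (points), with the group mean and SD (bars, n = 3): the 6 with the largest rise in M21 and the 6 with the largest fall in G27 against NC82. In the first 6 panels all M21 and G27 libraries lie above the NC82 libraries, and in the other 6 all G27 libraries lie below them.

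Falls in M21 were smaller than its rises. Nitab4.5_0015193g0010 was the only enzyme called with a fall of more than 1. It went from 10.8, 12.2 and 11.8 in NC82 to 4.42, 4.22 and 3.59 in M21, a log2 change of -1.31 (SE 0.09, limma adjusted p = 4.2e-06). Nitab4.5_0007346g0060 stood at 2.72, 3.16 and 3.21 in NC82 and 1.15, 1.14 and 0.84 in M21, with a log2 change of -0.98. Nitab4.5_0000156g0120 fell from 19.3 ± 3.27 to 9.61 ± 1.21 (SD, n = 3) and Nitab4.5_0001485g0210 from 33.3 ± 3.68 to 18.2 ± 0.456. In each of these 4 genes the highest M21 library lay under the lowest NC82 library. Nitab4.5_0000074g0050 fell from 5.02 ± 0.743 to 2.39 ± 0.3, and Nitab4.5_0004126g0030, of E-class group IV, from 4.78 ± 0.673 to 2.26 ± 0.375. The limma adjusted p of these last 5 genes lay between 7.5e-05 and 0.0016. The number of enzymes that fell was 17 without NC82 replicate 2, in place of 27. Calls in both directions then covered 34.6% of the enzymes and 17.9% of all genes, in place of 46.3% and 24.3%.

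G27 was compared with NC82 to ask the same of the other line. Rises and falls were about as many: 34 of 188 enzymes rose (18.1%) and 38 fell (20.2%). The background among all tested genes was 7.87% up and 6.05% down. The median log2 change was -0.07, against 0.047 over all tested genes. Changes of at least 1 in size were called for 11 enzymes that rose and 10 that fell, 11.2% of the enzymes, where 2.21% of all genes passed that mark. The groups did not overlap for 47 enzymes that were higher and 62 that were lower, 58% in all, against 19.2%, 11.4% and 30.6% of all genes. This comparison shares its NC82 libraries with the previous one, so similar values in both are not independent.

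Several of the largest rises were in genes already named. Nitab4.5_0007406g0020 rose by 2.19 (SE 0.35, limma adjusted p = 0.0015) and Nitab4.5_0020114g0010 by 1.75 (SE 0.27, limma adjusted p = 0.0011). Nitab4.5_0000256g0030 stood at 0.55, 1.51 and 1.63 in NC82, at 6.35, 6.14 and 5.65 in M21, and at 4.98, 7.24 and 5.05 in G27. Its G27 rise was 1.62 (SE 0.19, limma adjusted p = 0.0002), and the lines overlapped. Nitab4.5_0013195g0010 rose to 13.7, 20.5 and 15.8 in G27, and Nitab4.5_0007566g0010 to 13.8, 15.3 and 14.4. Nitab4.5_0000990g0040 rose from 1.67 ± 0.234 to 5.37 ± 0.437 (SD, n = 3), a log2 change of 1.25. Over the 34 enzymes that rose, G27 replicate 2 was the highest G27 library in 24 (70.6%), against 44.7% of all genes that rose, and NC82 replicate 1 was the lowest NC82 library in 28 (82.4%), against 50.2%. Without G27 replicate 2, 24 enzymes rose, and without the 3 libraries that stand apart, 21 rose and 34 fell.

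The 6 largest called falls in G27 ran from -1.60 to -1.10 on the log2 scale, and those called in M21 from -1.31 to -0.83. Nitab4.5_0015193g0010 fell to 2.98, 3.36 and 3.11, a log2 change of -1.60 (SE 0.09, limma adjusted p = 1.8e-06). Nitab4.5_0007346g0060 fell to 0.46, 0.47 and 0.61, a log2 change of -1.41 (SE 0.11, limma adjusted p = 1.3e-05), and Nitab4.5_0000156g0120 to 6.46, 8.63 and 6.13. All 3 G27 libraries of these genes lay under the lowest NC82 library. Nitab4.5_0010395g0010 stood at 2.36, 2.54 and 3.29 in NC82, at 2.07, 1.99 and 1.78 in M21, and at 0.72, 0.77 and 0.49 in G27. It fell by 1.16 (SE 0.12) in G27, with a limma adjusted p of 8.2e-05, while its M21 value of -0.33 did not pass the test (limma adjusted p = 0.067). Nitab4.5_0009277g0020 and Nitab4.5_0008489g0010 fell in G27 from 29.9 ± 6.15 to 13.1 ± 1.92 and from 7.69 ± 1.69 to 3.04 ± 0.567 (SD, n = 3). Their M21 means were 26.2 and 6.69, and these did not pass the test against NC82.

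A direct comparison of M21 with G27 gave calls almost wholly in one direction. Of 188 enzymes, 53 were higher in M21 (28.2%) and 2 lower (1.06%), where 5.47% of all tested genes were higher and 6.40% lower. The median log2 difference was 0.207 over the enzymes and -0.01 over all tested genes. Of the 188 values, 137 lay above 0, where 15838 of 33188 did over all tested genes. Differences were mostly small: among the 53, the median was 0.59 and the largest 1.14. A difference of at least 1 was called for 3 enzymes (1.6%), where 0.753% of all genes passed that mark. The groups did not overlap for 87 enzymes that were higher in M21 and 16 that were lower, 54.8% in all, against 12.9%, 15.7% and 28.6% of all genes. Without M21 replicate 1 the number higher was 31, in place of 53, and without the 3 libraries that stand apart it was 44. The shares called in either direction were then 17.6% and 25.0% of the enzymes, against 6.93% and 8.46% of all genes. With all libraries they were 29.3% and 11.9%.

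**Figure D3:**
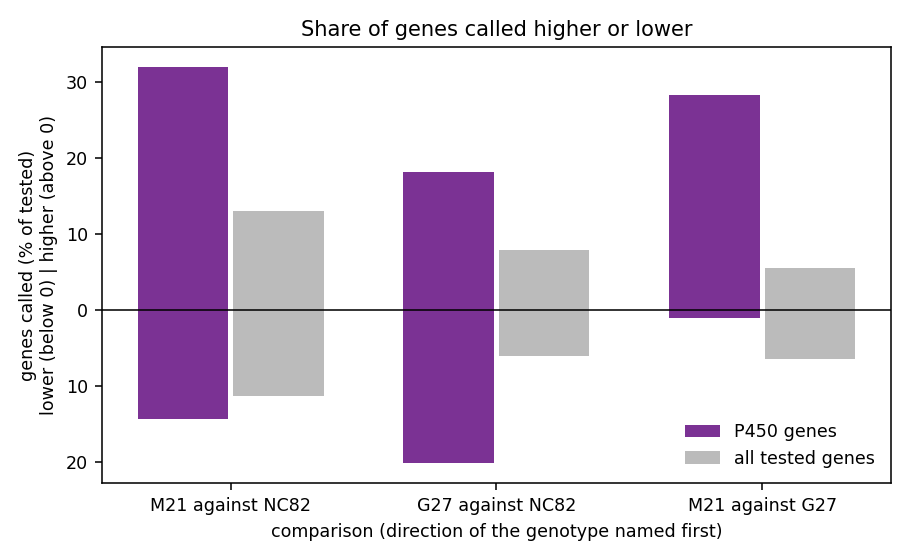
Share of tested genes called higher (above 0) or lower (below 0) in the genotype named first, for 188 P450 genes (purple) and all 33188 tested genes (grey), in 3 comparisons. The P450 bars reach 31.9%, 18.1% and 28.2% upward and 14.4%, 20.2% and 1.06% downward.

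The 53 enzymes did not share one position relative to NC82. The NC82 mean lay between those of the lines for 26, above both for 14 and under both for 13. Over the 1817 genes of the whole table that were higher in M21 than in G27, these numbers were 815, 251 and 751. These positions describe means and were not tested.

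The largest differences were found in genes that were low in G27. Nitab4.5_0000143g0610 stood at 2.7, 1.77 and 1.95 in NC82, at 3.16, 2.64 and 2.94 in M21, and at 0.43, 0.68 and 1.34 in G27. M21 was higher than G27 by 1.14 (SE 0.17, limma adjusted p = 0.0024), and all 3 G27 libraries lay under all others. Its fall in G27 against NC82, -0.81, was -0.53 without the 3 libraries that stand apart, with a limma adjusted p of 0.097. Nitab4.5_0004799g0010 stood at 2.92, 3.15 and 3.23 in NC82, at 3.81, 3.31 and 3.21 in M21, and at 1.32, 1.35 and 0.98 in G27. NC82 and M21 overlapped, and M21 was higher than G27 by 1.01 (SE 0.1, limma adjusted p = 0.00026). Nitab4.5_0001182g0010 had means of 4.82, 4.56 and 1.8 in NC82, M21 and G27, with a difference between the lines of 0.97. The differences of Nitab4.5_0009277g0020 and Nitab4.5_0008489g0010, given above, were 0.96 and 0.93.

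Nitab4.5_0000027g0190 departed mainly through M21 instead. It stood at 1.66, 2.13 and 1.48 in NC82, at 3.85, 3.75 and 3.19 in M21, and at 1.17, 1.31 and 1.4 in G27. M21 lay above both other groups, by 0.74 against NC82 (SE 0.11, limma adjusted p = 0.00074) and by 1.00 against G27 (SE 0.11, limma adjusted p = 0.00042). The G27 libraries also lay under those of NC82, but that change of -0.26 did not pass the test (limma adjusted p = 0.17). Both enzymes that were lower in M21 were low throughout. Nitab4.5_0005120g0020 stood at 0.77, 0.79 and 0.77 in M21, against 2.64, 1.75 and 1.51 in G27 and 1.76, 1.44 and 1.61 in NC82, a difference between the lines of -0.72 (SE 0.14, limma adjusted p = 0.0067). Nitab4.5_0004012g0010 stood at 2.42, 2.18 and 2.29 in M21 and at 3.54, 4.01 and 3.13 in G27, a difference of -0.46 (limma adjusted p = 0.012). The second call was lost without the 3 libraries that stand apart (limma adjusted p = 0.079).

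**Figure D4:**
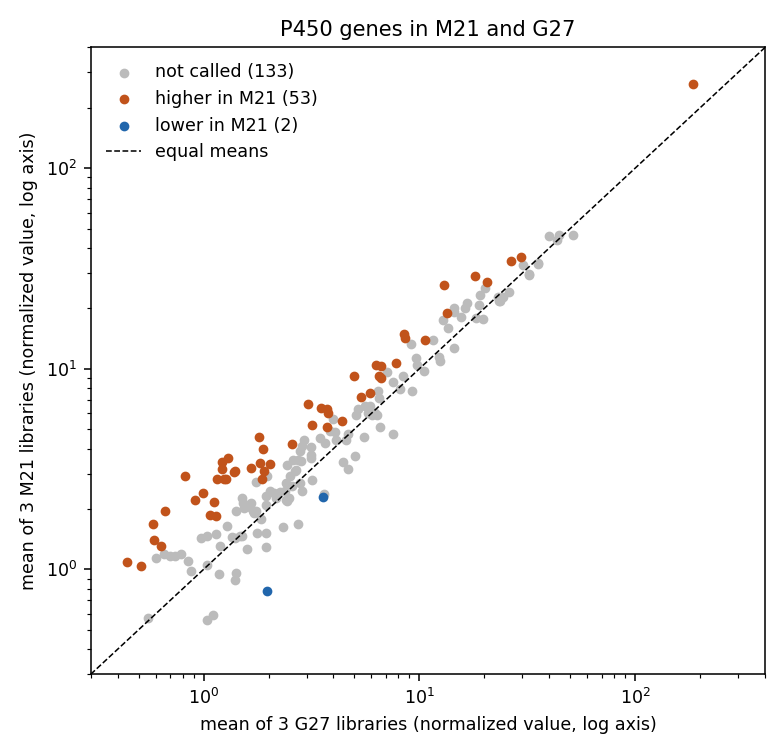
Mean normalized value of each of the 188 P450 genes in M21 (vertical) and G27 (horizontal), both on log axes, n = 3 libraries each; the dashed line marks equal means. The 53 genes called higher in M21 (orange) lie above the line over the whole range of levels, and the 2 called lower (blue) lie among low genes.

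A single gene held a large part of the P450 signal. Nitab4.5_0002545g0050, of E-class group I, stood at 232.7, 239.6 and 228.8 in NC82, at 268.1, 254.3 and 269.8 in M21, and at 189.1, 186.9 and 181 in G27. No 2 genotypes overlapped. It carried 12% to 15.2% of the summed level, and the 10 highest genes together carried 34.3% to 36.7%. M21 was higher than G27 by 0.51 (SE 0.06, limma adjusted p = 0.00043), and G27 stood at -0.33 relative to NC82 (limma adjusted p = 0.0024). Its rise of 0.18 in M21 against NC82 (limma adjusted p = 0.044) was lost in 12 of 18 alternatives, among them leaving out any NC82 library, M21 replicate 1 or 3, or G27 replicate 1 or 3. Without this gene the summed level was 1300.1 to 1437.4 in NC82, 1488.1 to 1528.7 in M21 and 1263.9 to 1370 in G27, so M21 still lay above both.

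Of the next 7 genes by level, 6 were called in no comparison. Nitab4.5_0000132g0440 had means of 52.8, 46.7 and 51.3 in NC82, M21 and G27, Nitab4.5_0018702g0010 of 44.9, 46.2 and 44.6, and Nitab4.5_0009814g0010 of 44.9, 44.1 and 43.2. The genotypes overlapped in the last 2, while in the first the M21 libraries lay under those of NC82. Nitab4.5_0000130g0230 stood at 37.7 ± 4.5, 46.2 ± 4.7 and 39.8 ± 2.42 (SD, n = 3), Nitab4.5_0005208g0020 at 38.0 ± 0.428, 33.5 ± 1.01 and 35.6 ± 1.4, and Nitab4.5_0000069g0530 at 36.9 ± 2.16, 33.2 ± 1 and 35.3 ± 3.4. The exception was Nitab4.5_0001145g0040, at 29.2, 29.96 and 30.7 in NC82, 37.5, 33.6 and 37.6 in M21, and 31.2, 29.0 and 28.3 in G27. It was higher in M21 than in NC82 by 0.26 (limma adjusted p = 0.019) and than in G27 by 0.29 (limma adjusted p = 0.024). The first call was lost without M21 replicate 1 or 3 or NC82 replicate 2, and the other without M21 replicate 1 or 3 or G27 replicate 2 or 3. In this order by mean, Nitab4.5_0002545g0050 stood clear of the rest, while each of the others overlapped in its library values with the next in line.

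Calls were found at every level. In M21 against NC82, 27 of 56 enzymes with a mean under 2 were called, 42 of 89 with a mean of 2 to 10, and 18 of 43 with a mean of 10 or more. These are 48.2%, 47.2% and 41.9%, against 21%, 20.2% and 32.2% of all tested genes at the same levels. In M21 against G27 the shares were 32.1%, 31.5% and 20.9%, against 7.84%, 8.39% and 19.3%. By direction, at a mean of 10 or more, 20.9% of the enzymes were higher in M21 and 0% lower, against 8.66% and 10.6% of all genes at that level.

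Signature classes describe the enzymes by sequence. E-class enzymes are the type that takes electrons from a single flavoprotein reductase, and B-class is named for bacterial types that use a ferredoxin. E-class group I held 163 of the 188, group IV held 12, group II held 1, and 12 had a P450 description with no class. None of 4 listed B-class genes passed the value rule. In group I, 55 rose and 23 fell in M21 against NC82 (33.7% and 14.1%), 33 rose and 34 fell in G27 (20.2% and 20.9%), and 47 were higher and 2 lower in M21 than in G27 (28.8% and 1.23%). In group IV, 2 rose and 3 fell in M21 (16.7% and 25%), 0 rose and 2 fell in G27 (0% and 16.7%), and 3 were higher and 0 lower in M21 than in G27 (25% and 0%). Over all tested genes the shares up and down were 13.0% and 11.3%, 7.87% and 6.05%, and 5.47% and 6.40%, so the group IV share that rose in M21 and its share called in G27 (16.7%, against 13.9% of all genes) lay near the background. With 12 genes, a difference between the classes was not tested.

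Group IV genes went more than one way. Nitab4.5_0004126g0030 stood at 4.03, 4.98 and 5.33 in NC82, at 2.59, 1.85 and 2.33 in M21, and at 2.07, 2.95 and 2.41 in G27, so both lines lay under NC82 and overlapped each other. The next genes were chosen after their values were seen. Nitab4.5_0015407g0010 stood at 3.82, 3.65 and 4.17 in NC82, at 5.21, 5.19 and 5.31 in M21, and at 3.06, 3.3 and 3.17 in G27. M21 was higher than G27 by 0.58 (limma adjusted p = 0.0011) and than NC82 by 0.36 (limma adjusted p = 0.0064), a call lost without the 3 libraries that stand apart (limma adjusted p = 0.06). Among genes with no class, Nitab4.5_0007287g0050 rose in M21 from 0.92, 0.76 and 0.78 to 2.95, 2.72 and 3.87, and stood at 1.45, 0.88 and 1.32 in G27. Without its M21 libraries this gene would not have met the value rule. The rise was 1.19 (limma adjusted p = 0.00012), and M21 was higher than G27 by 0.91 (limma adjusted p = 0.0019).

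P450 genes often lie in tandem arrays, and the identifiers carry a scaffold number and a gene number along it. Of 681 listed enzymes, 269 fell into 105 runs in which each gene was numbered within 30 of the next on one scaffold, and 62 of these (23%) passed the value rule, against 126 of 412 others (30.6%). The longest run held 10 genes, of which 3 passed. Among enzymes that passed, 30 formed 14 runs of 2 or 3. In M21 against NC82, 2 of the 14 runs held calls in opposite directions, 1 held calls in a single direction in more than 1 gene, 6 held 1 call and 5 none. In G27 against NC82 these numbers were 1, 2, 6 and 5, and in M21 against G27 they were 0, 2, 5 and 7. Reads from near-identical neighbours or from the homeologs of this allotetraploid may have been split or pooled between identifiers, so their separate values are uncertain.

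The first run described held genes that went opposite ways. Nitab4.5_0000156g0080 stood at 0.87, 1.15 and 1.07 in NC82, at 1.98, 2.03 and 2.16 in M21, and at 1.53, 1.85 and 1.56 in G27. It rose by 0.59 in M21 (limma adjusted p = 0.0015). Its rise of 0.38 in G27 (limma adjusted p = 0.026) was lost without G27 replicate 2 or 3 or NC82 replicate 1 or 3. Nitab4.5_0000156g0120, its neighbour 40 numbers on, fell in both lines, as given above, by 0.93 in M21 and by 1.33 in G27. Nitab4.5_0000156g0090, between them, had means of 2.4, 1.96 and 1.7 in NC82, M21 and G27, with a call in G27 alone (limma adjusted p = 0.038) that was lost in 10 of 18 alternatives, leaving out any G27 library or NC82 replicate 2 or 3 among them. In the longest run, Nitab4.5_0000883g0170 rose in M21 from 12.8 ± 0.3 to 15.9 ± 0.83 (SD, n = 3), with a limma adjusted p of 0.0087, and of 0.07 without the 3 libraries that stand apart. Its neighbours Nitab4.5_0000883g0180, at 22.9, 23.4 and 19.1, and Nitab4.5_0000883g0190, at 5.81, 5.86 and 6.39, were called in no comparison.

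**Figure D5:**
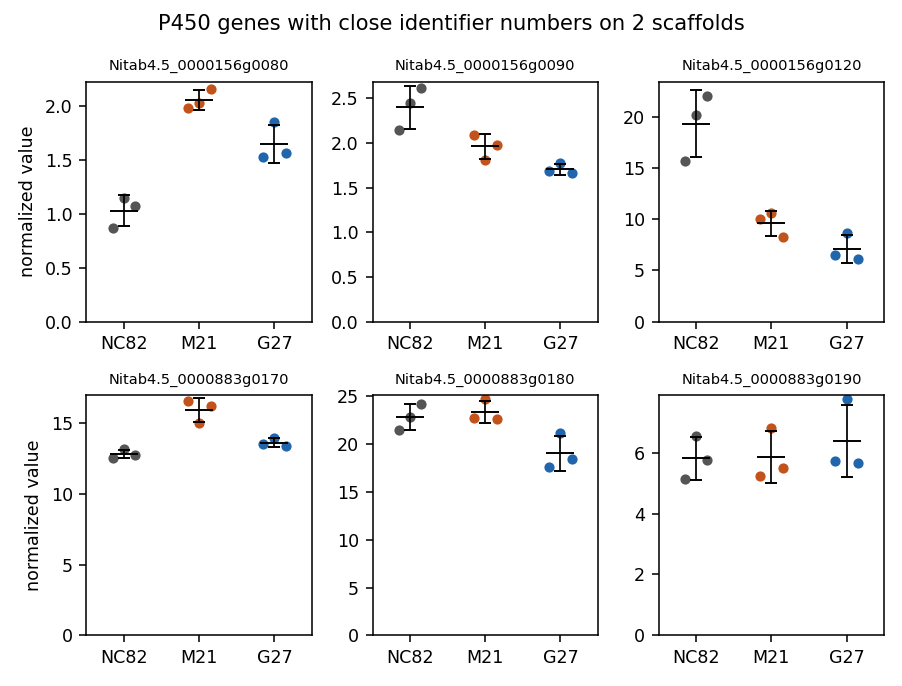
Normalized values of 6 P450 genes with close identifier numbers in every library (points), with the group mean and SD (bars, n = 3). In the first run (top row) the first gene is lowest in NC82 and the third is highest there, while in the other (bottom row) the first gene is highest in M21 and the others have no call.

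In other pairs both genes were called the same way, among them Nitab4.5_0000143g0610 with its neighbour Nitab4.5_0000143g0590, which was higher in M21 than in G27 by 0.78 (limma adjusted p = 0.00043). Nitab4.5_0000062g0010 stood at 1.03, 1.27 and 1.59 in NC82, at 1.73, 1.66 and 1.64 in M21, and at 0.59, 0.57 and 0.59 in G27, and M21 was higher than G27 by 0.76 (limma adjusted p = 0.0018). Nitab4.5_0000062g0030, of group IV, was higher in M21 than in G27 by 0.37 (limma adjusted p = 0.016), a call lost without M21 replicate 1 or G27 replicate 2. The genes that follow were chosen after their values were seen. Nitab4.5_0002097g0040 and Nitab4.5_0002097g0050 fell in G27 from 5.93 ± 0.679 to 2.79 ± 0.663 and from 5.06 ± 0.348 to 2.02 ± 0.286 (SD, n = 3), log2 changes of -0.88 and -1.01. Both also fell in M21, with log2 changes of -0.51 and -0.48 (limma adjusted p = 0.022 and 0.0094). Their M21 calls were lost in 5 and in 1 of 18 alternatives. A run of 8 listed enzymes held 3 that passed the value rule. In it, Nitab4.5_0000390g0020 rose in M21 from 0.32, 0.56 and 0.31 to 2.01, 2.51 and 2.11, by 1.20 (limma adjusted p = 0.00016). Its NC82 libraries all lay under 1, and its M21 libraries alone met the value rule. Nitab4.5_0000390g0100 rose by 0.95 (limma adjusted p = 0.0003), while Nitab4.5_0000390g0050, between them, fell by 0.44 (limma adjusted p = 0.029). That fall was lost without M21 replicate 1 or 2 or NC82 replicate 1 or 2.

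The reductases that feed electrons to P450 enzymes gave no call. Of 7 listed, 6 passed the value rule and limma called 0 in each comparison. At an unadjusted limma p under 0.05 there was 1 in M21 against NC82, 0 in G27 against NC82 and 1 in M21 against G27. Over all tested genes, 24.3%, 13.9% and 11.9% were called in these 3 comparisons. With 6 genes, whether 0 calls departs from these shares was not tested. The summed level of the 6 reductases was 87.6, 95.6 and 93.3 in NC82, 105.3, 95.7 and 106.1 in M21, and 95.8, 99.8 and 84.5 in G27. The highest, Nitab4.5_0005913g0030, stood at 28.2, 29.9 and 28.6 in NC82, at 35.0, 31.3 and 35.7 in M21, and at 32, 34.9 and 29.6 in G27. All 3 M21 libraries lay above NC82, but the log2 difference of 0.23 did not pass the test (limma adjusted p = 0.061, and 0.035 to 0.27 over the alternatives). The others were Nitab4.5_0000131g0220, Nitab4.5_0000455g0070, Nitab4.5_0001972g0020, Nitab4.5_0001569g0100 and Nitab4.5_0005199g0010, with means over the 9 libraries of 21.1, 15.1, 11.6, 8.78 and 7.68. Of 48 tested genes with a cytochrome b5 description, 16 of which also carry reductase, desaturase or molybdopterin words, 8 rose and 4 fell in M21 and 3 rose and 1 fell in G27. These are 25% and 8.33% called, against 24.3% and 13.9% of all tested genes, so the list was near the background in M21 and under it in G27. The most abundant, Nitab4.5_0003389g0030, rose in M21 from 314.8, 269.5 and 254.7 to 389.7, 342.7 and 408.6, by 0.44 (limma adjusted p = 0.0046). Nitab4.5_0006784g0030 rose from 233.0 to 307.6, a call with overlapping groups that was lost in 8 of 18 alternatives, leaving out NC82 replicate 2 or 3, M21 replicate 1 or 3 or G27 replicate 3 among them. Nitab4.5_0019580g0010 and Nitab4.5_0000200g0080 were not called.

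Pathways linked to P450 enzymes by substrate, product or cofactor were counted by description. Of 37 genes on the route to heme, from glutamyl-tRNA reductase to ferrochelatase, 3 rose and 12 fell in M21 and 4 rose and 1 fell in G27. Between the lines, 0 of them were higher and 15 lower in M21 than in G27. The earlier steps of this route are not particular to heme, so the list does not measure supply of the cofactor. Of 16 ammonia-lyase and chalcone synthase genes, at the start of phenylpropanoid and flavonoid synthesis, 2 rose and 9 fell in M21, and 2 rose and 9 fell in G27. Their median log2 changes were -0.503 and -0.641. Of 30 terpene synthases, which make the skeletons that many P450 enzymes oxidize, 12 rose and 1 fell in M21, 9 rose and 6 fell in G27, and 8 were higher and 0 lower in M21 than in G27. Of 15 lipoxygenases, which open the route to jasmonate, 3 rose and 2 fell in M21 and 2 rose and 1 fell in G27. The shares called in M21 and G27 against NC82 were 40.5% and 13.5% for the route to heme, 68.8% in both for ammonia-lyases and chalcone synthases, 43.3% and 50% for terpene synthases, and 33.3% and 20% for lipoxygenases. The background was 24.3% and 13.9%, so the route to heme in G27 lay near it. In M21 against G27, 0% of that route was higher and 40.5% lower, and 26.7% and 0% of terpene synthases. Over all tested genes these shares were 5.47% and 6.40%. Ammonia-lyases and chalcone synthases stood there at 12.5% called and lipoxygenases at 6.67%, against 11.9% of all genes.

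Enzyme families that act beside or after P450 enzymes were mixed. Of 111 UDP-glycosyltransferases, which attach sugars to oxidized products, 25 rose and 16 fell in M21, 16 rose and 18 fell in G27, and 18 were higher and 6 lower in M21 than in G27. Of 87 glutathione S-transferases, which act in detoxification, 33 rose and 13 fell in M21, 24 rose and 10 fell in G27, and 12 were higher and 14 lower in M21 than in G27. Of 111 genes of 2-oxoglutarate-dependent dioxygenases, the other large family of plant oxygenases, 24 rose and 9 fell in M21 and 24 rose and 12 fell in G27, and 12 were higher and 4 lower in M21 than in G27. Of 134 ABC transporters, 19 rose and 18 fell in M21, 17 rose and 14 fell in G27, and 12 were higher and 3 lower in M21 than in G27. The shares called in M21 and G27 against NC82 were 36.9% and 30.6% for glycosyltransferases, 52.9% and 39.1% for glutathione S-transferases, 29.7% and 32.4% for dioxygenases and 27.6% and 23.1% for ABC transporters. Against the background of 24.3% and 13.9%, the transporters in M21 lay near it. In M21 against G27, where 11.9% of all genes were called, transporters stood at 11.2% and dioxygenases at 14.4%. Glycosyltransferases stood there at 21.6% and glutathione S-transferases at 29.9%. The lists were not tested against one another.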

How the data were processed

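RNA from young leaves was sequenced as paired-end libraries, per the labels' protocols. HISAT2, StringTie and RSEM are named, per the submitters' processing notes. What each program did, which assembly and gene models were used, and whether counting used strand is not given in the sources used here. In the authors' deposited table each library has a column of normalized signal whose unit the header leaves out. Columns summed to 771390 to 790816, which shows scaling for depth. Absolute depth is unknown, and no counting intervals can be given. The 3 columns of group means were not used.

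Tests took genes that reached a value of 1 in 3 or more libraries. After adding a pseudocount of 1, log2 values of the 9 libraries entered 1 fit by genotype with limma 3.58.1 (empirical Bayes, mean trend) in R 4.3.3. P-values were two-sided and Benjamini-Hochberg adjusted over 33188 genes. They measure only the spread between these samples, which may be technical. The method was tested on simulated data. Figures were drawn with matplotlib 3.10.9.

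Members and lists were chosen with earlier results of these data known. Named genes were the 6 largest called rises and falls per comparison, the 8 highest enzymes, those called in opposite directions in the lines, runs of neighbours (values for the 3 largest, ties taken in identifier order), those nearest the threshold, and the most abundant electron donors; others are marked. Of the 188 identifiers, 0 matched the RefSeq gene table, so no names, coordinates or sequences are given. Alternatives were other pseudocounts, filters, scaling, trend and samples, a replicate block, and leaving out libraries. Counting the reductases as members was added after seeing the data.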

Additional observations from a re-analysis of the deposited data

Results flagged for a closer look

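In 3 P450 enzymes the lines departed from NC82 in opposite directions, with M21 above it and G27 below it. The difference between the lines also passed the test in each. It is the M21 change minus the G27 change from the same fit, so this pass adds no separate support. How often such opposite calls occur among all tested genes was not counted, so whether 3 is unusual was not tested. Nitab4.5_0000143g0590 stood at 3.07 ± 0.118 in NC82, 3.96 ± 0.407 in M21 and 1.89 ± 0.0643 in G27 (SD, n = 3), with M21 higher than G27 by 0.78 (limma adjusted p = 0.00043). Nitab4.5_0002436g0020 stood at 21.1 ± 0.228, 29.0 ± 0.627 and 18.1 ± 0.523, with M21 higher than G27 by 0.66 (limma adjusted p = 0.00018). Nitab4.5_0002545g0050, the most abundant enzyme, stood at 233.7 ± 5.48, 264.1 ± 8.51 and 185.7 ± 4.21, with M21 higher than G27 by 0.51 (limma adjusted p = 0.00043). In each gene the 3 groups did not overlap. The differences between the lines kept their calls in all 18 alternatives. A call against NC82 was less steady in each: that of M21 in Nitab4.5_0000143g0590 was lost in 11 alternatives (limma adjusted p = 0.027 to 0.13), that of G27 in Nitab4.5_0002436g0020 in 12 (0.016 to 0.13), and that of M21 in Nitab4.5_0002545g0050 in 12 (0.04 to 0.15).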

How the results depend on the processing

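Counts of P450 enzymes called kept their order of directions in M21 against NC82 and in M21 against G27 under every alternative run. In M21 against NC82, leaving out 1 library at a time gave 48 to 60 that rose and 17 to 27 that fell, the lowest fall without NC82 replicate 2. In G27 against NC82 it gave 24 to 35 that rose and 29 to 41 that fell, and 21 rose without the 3 libraries that stand apart, in place of 34. In that comparison more enzymes rose than fell with no mean trend (37 and 36), and as many rose as fell without M21 replicate 3 (35 each) or NC82 replicate 3 (29 each). In M21 against G27, leaving out 1 library gave 31 to 58 higher and 2 to 4 lower, and 5 were lower with no filter on low values and 5 with no mean trend. A filter on a mean of 1 or more over the 9 libraries kept 176 enzymes, without the 4 that reached 1 in a single genotype. Of these, 44.9%, 38.1% and 30.7% were called in the 3 comparisons, against 24.4%, 13.9% and 12.0% of all genes. With no filter, 491 enzymes were tested and 20.6%, 16.9% and 12.6% were called in the 3 comparisons, against 16%, 9.17% and 7.12% of all genes, so the gap to the background narrowed. The cause of these differences was not tested. Counting the 6 reductases as members left these 6 counts of calls as they were. With the replicate number as a block, 56 rose and 25 fell in M21, 32 rose and 38 fell in G27, and 48 were higher and 2 lower in M21 than in G27. Libraries of the same number did not deviate together in every pair (correlations of -0.215 to 0.343), so the numbers are not taken as pairs. Of 96 calls of named genes, 66 held in every alternative, 30 were lost in at least 1, and 0 reversed. Changes of low genes depended on the pseudocount: that of Nitab4.5_0007346g0060 in G27 was -2.36 with 0.1 and -0.78 with 3, both called.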
